A study of Mus musculus with 6 samples.

Results

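The genes described here encode readers and assembly factors of repressed chromatin: subunits of Polycomb repressive complexes 1 and 2 (PRC1 and PRC2), the HP1 proteins and their partners. The list holds 37 genes, of which 36 had a probe set annotated to that gene alone, among 18193 such genes on the array. Rybp is the member without a value, because its probe sets are also annotated to a pseudogene copy. Where a gene had several such probe sets, the one brightest on average over the 6 arrays stood for it, and all 36 were bright enough to be tested, among 12740 tested genes. RNA came from R1 mouse embryonic stem cells that carried a lentivirus and had been sorted for GFP. On 3 Affymetrix mouse expression arrays the virus expressed KIAA1718 shRNA1, and on 3 control arrays it expressed an shRNA against luciferase (Luc). Every group therefore carried a virus, GFP and 1 hairpin, so the loss of KIAA1718 and any other action of this hairpin or virus pool cannot be told apart. The labels do not state whether the replicates are independent infections. The p-values refer only to the scatter among these 6 arrays, and that scatter could be technical.

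PRC2 places methyl groups on lysine H3K27, through a catalytic subunit (Ezh1 or Ezh2) that works only with Eed and Suz12. PRC1 places ubiquitin on H2AK119 through Ring1 or Rnf2, each paired with a PCGF protein; canonical PRC1 binds methylated H3K27 through a CBX chromodomain, and variant PRC1 carries Rybp or Yaf2 in its place. The HP1 proteins Cbx1, Cbx3 and Cbx5 bind methylated H3K9 in heterochromatin. In embryonic stem cells Polycomb complexes keep developmental genes silent while leaving them inducible. KIAA1718, the product of Kdm7a, removes methyl groups from H3K9 and H3K27, so the comparison asks which transcripts differ when its mRNA is targeted.

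Deposited signals are linear and were not on 1 scale: the median signal per array ran from 9.58 to 13.3. Fold changes below are therefore differences of log2(signal + 16) after quantile normalization, given as KIAA1718 shRNA1 minus Luc ± SE, while signals are quoted as deposited. Arrays of the same group correlated at 0.983 to 0.989, and arrays of different groups at 0.976 to 0.985. The targeted gene gave no check of the labels: the brightest Kdm7a probe set had signals of 40.9, 23.8 and 34.9 on KIAA1718 shRNA1 arrays and 33.3, 31.2 and 44.9 on Luc arrays. The groups overlapped, and the log2 difference was -0.20 with a 95% interval of -0.54 to 0.13 (limma adjusted p = 0.533). Its other tested probe sets, also dim, lay on the same side of 0, at -0.22 and -0.16 (limma adjusted p = 0.462 and 0.584). The stem cell marker gene Pou5f1 (Oct4) had signals of 916, 1151 and 1101 on KIAA1718 shRNA1 arrays and 1072, 1083 and 1131 on Luc arrays. Its log2 difference was -0.15 (limma adjusted p = 0.386). Of 9 listed stem cell markers 8 lay below 0, while 50.2% of all tested genes lay above 0. Among the 9, 2 passed the threshold as lower, or 22.2%, against 2.17% of all tested genes. These were Fgf4, at -0.72 (limma adjusted p = 0.00334), and Utf1, at -0.44 (limma adjusted p = 0.0242).

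Of the 36 genes, 2 rose (Cbx1 and Yaf2), 1 fell (Ring1) and 33 did not pass (limma, adjusted p under 0.05 over all tested probe sets). That is 8.33% of the genes, against 4.84% of all tested genes (617 of 12740), of which 2.67% were higher and 2.17% lower with KIAA1718 shRNA1. Counted by whether the groups overlapped on normalized values, 10 of 36 were separated, 4 higher and 6 lower with KIAA1718 shRNA1, which is 27.8% against 27.9% of all tested genes (14.5% higher and 13.4% lower). An unadjusted p under 0.05 was found for 10 of 36, or 27.8%, against 22% of all tested genes. The median log2 difference was -0.01, with 17 genes above 0 and 19 below, and the median over all genes was 0.0011. No gene of the list reached a 2-fold change of signal + 16, which 0.51% of all tested genes did. Intervals give the precision on that scale. For all 36 genes the 95% interval lay inside a 2-fold change in either direction, and for 28 it lay inside 1.5-fold. The added 16 pulls the intervals of dim genes towards 0. Mean signals of Cbx3, Cbx8, Scml2 and Phf19 were 16.5, 11.5, 12.2 and 18.2. Intervals of such genes do not bound the fold change of the signal itself.

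**Figure D1:**
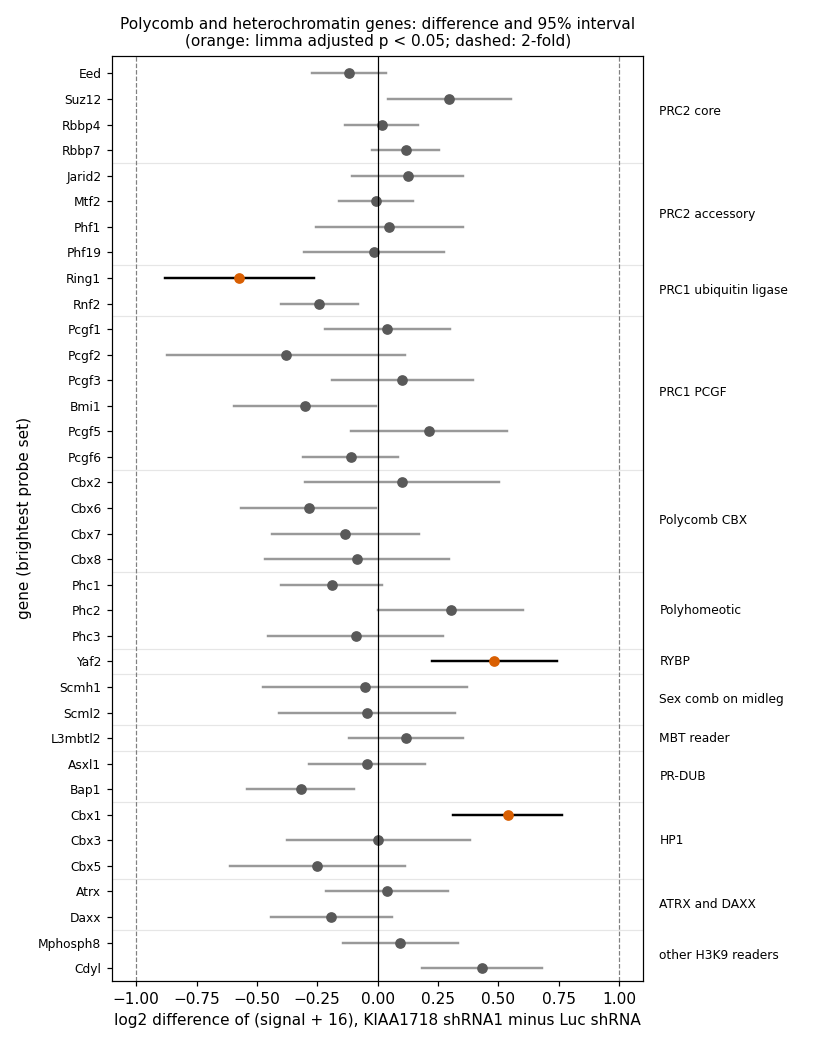
Log2 difference (points) with 95% interval (bars) for the 36 genes, KIAA1718 shRNA1 minus Luc, grouped by complex; the horizontal axis is log2 of signal + 16. Cbx1, Yaf2 and Ring1, in orange, passed the threshold, and no interval reached the dashed lines at a 2-fold change of signal + 16.

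Among the HP1 genes, Cbx1, which encodes HP1 beta, was higher with KIAA1718 shRNA1. Its brightest probe set had signals of 699, 761 and 909 on KIAA1718 shRNA1 arrays and of 501, 472 and 496 on Luc arrays. The groups did not overlap, and the lowest KIAA1718 shRNA1 array stood well above the highest Luc array. Mean signals were 789.7 ± 108 and 489.6 ± 15.4 (SD, n = 3 each), and the log2 difference was 0.54 ± 0.10, a 1.45-fold change (limma adjusted p = 0.0171). Cbx1 ranked 250 by p-value among the 12740 genes. Its 4 further probe sets lay on the same side, at 0.54, 0.18, 0.40 and 0.47 in falling order of signal, and none of them passed (limma; 3 at an unadjusted p under 0.05). The call was lost without KIAA1718 shRNA1 replicate 3 (0.47, adjusted p = 0.0847) and without Luc replicate 3 (0.44, adjusted p = 0.0792).

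Cbx1 lies on chromosome 11, where the genes as a whole were higher with KIAA1718 shRNA1. Of 1055 tested genes on that chromosome 73 rose and 5 fell, and the median log2 difference was 0.13. After each array was centred on the median of each chromosome, an alternative added after seeing the data, Cbx1 differed by 0.40 (limma adjusted p = 0.0645). The promoter of Cbx1, shown because Cbx1 had the smallest p-value of the list, spans chr11:96788885-96789184 on the plus strand of GRCm38.p6 (RefSeq, 250 bases before the start to 50 after). Written 5′ to 3′ with CG dinucleotides, which variant PRC1 is recruited to when they are unmethylated, in capitals, it reads:
Cbx1: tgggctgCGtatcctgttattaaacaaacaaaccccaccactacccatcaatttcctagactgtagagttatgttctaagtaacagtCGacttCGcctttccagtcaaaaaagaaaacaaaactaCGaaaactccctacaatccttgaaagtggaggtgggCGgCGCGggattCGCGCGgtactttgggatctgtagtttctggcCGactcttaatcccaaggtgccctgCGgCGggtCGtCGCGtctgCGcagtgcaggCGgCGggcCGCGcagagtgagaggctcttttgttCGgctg
It holds 22 CG dinucleotides, and 23.1% of the 32851 RefSeq promoter windows of this length hold as many.

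The other HP1 genes did not pass. Cbx5, which encodes HP1 alpha, had signals of 327, 206 and 363 with KIAA1718 shRNA1 and of 324, 263 and 369.7 with Luc. The groups overlapped, with KIAA1718 shRNA1 replicate 2 lowest of all, and the log2 difference was -0.25 ± 0.17 (limma adjusted p = 0.461). Its 3 further tested probe sets lay on the other side of 0, at 0.05, 0.16 and 0.04. Cbx3, which encodes HP1 gamma, had only a dim probe set of its own, at 12.2 to 23.3 with KIAA1718 shRNA1 and 11.2 to 19.4 with Luc, and differed by 0.0032 with an interval of -0.38 to 0.38.

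Among other proteins that read or guard H3K9 methylation, Cdyl came closest to the threshold. Cdyl, a chromodomain protein that binds methylated H3K9 and H3K27, had signals of 433, 389.8 and 414 with KIAA1718 shRNA1 and of 258, 217 and 358 with Luc. All KIAA1718 shRNA1 arrays lay above all Luc arrays, and Luc replicate 3 stood nearest to them. The log2 difference was 0.43 ± 0.11 (limma adjusted p = 0.0592, and 0.0365 with the replicate number as a block). Both further probe sets of Cdyl lay above 0, at 0.30 and 0.45. Mphosph8, the chromodomain subunit of the HUSH silencing complex, differed by 0.09 (adjusted p = 0.708). It stood at 0.24 relative to the median of its chromosome 14, which was -0.15. The histone H3.3 chaperone pair gave -0.19 for Daxx (adjusted p = 0.401) and 0.04 for Atrx (adjusted p = 0.900), whose 7 probe sets ran from -0.11 to 0.29.

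**Figure D2:**
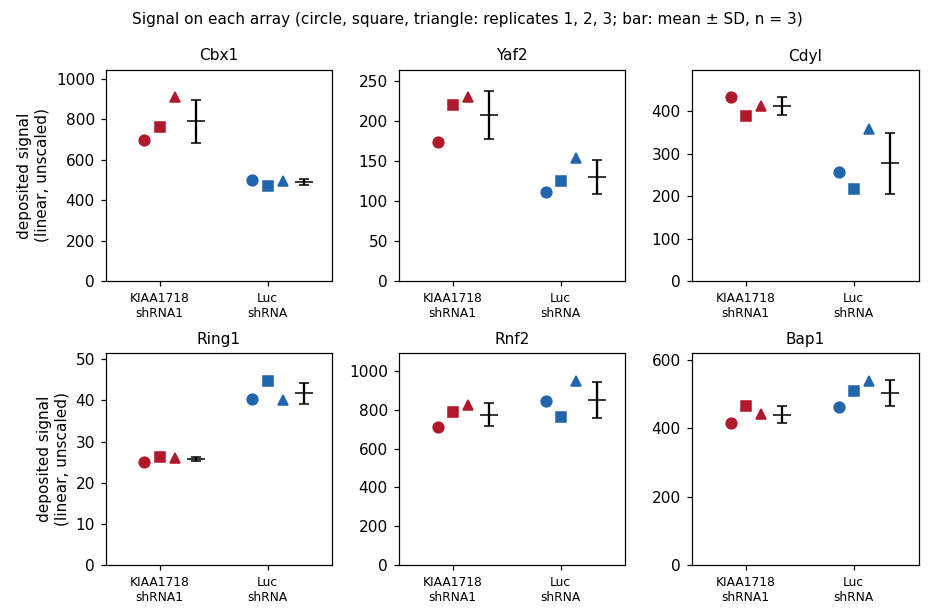
Deposited linear signal on each array for the 6 genes with the smallest p-values, KIAA1718 shRNA1 left of Luc in each panel; symbols are replicates and bars are mean ± SD (n = 3). Cbx1, Yaf2 and Cdyl lie higher with KIAA1718 shRNA1 and Ring1 lower, whereas Rnf2 and Bap1 overlap between groups before normalization.

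In PRC1, both genes for the ubiquitin ligase lay below 0, and of these only Ring1 passed. Ring1 had signals of 25.1, 26.1 and 25.9 on KIAA1718 shRNA1 arrays and of 40.4, 44.7 and 40.1 on Luc arrays. The groups were clearly apart, with little spread inside either, at a low signal. The log2 difference was -0.57 ± 0.14 (limma adjusted p = 0.0481), from the only probe set of this gene. Its size depends on the pseudocount, at -0.83 with 1 and -0.29 with 64, and leaving out any 1 array ended the call, with adjusted p of 0.0606 to 0.155. The promoter of Ring1, shown as that of the gene that fell, spans chr17:34024631-34024930 on the minus strand of GRCm38.p6 (RefSeq), with CG dinucleotides in capitals:
Ring1: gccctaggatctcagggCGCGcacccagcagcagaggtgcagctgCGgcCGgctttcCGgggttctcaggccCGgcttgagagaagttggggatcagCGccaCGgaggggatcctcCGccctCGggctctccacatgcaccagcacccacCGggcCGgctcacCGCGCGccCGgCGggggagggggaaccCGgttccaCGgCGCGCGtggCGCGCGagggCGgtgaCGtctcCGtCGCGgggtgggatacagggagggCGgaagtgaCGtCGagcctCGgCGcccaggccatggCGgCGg
It holds 37 CG dinucleotides, a number reached by 5.58% of promoter windows, whose median is 7. Neither this window nor that of Cbx1 holds CACGTG, the E-box bound by Max and its partners, or GGCGGGA, an E2F-type motif, on either strand; these occur in 7.15% and 11.3% of all windows.

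Rnf2, the ligase on which most ubiquitination of H2A rests in embryonic stem cells, had signals of 709.5, 788 and 826 with KIAA1718 shRNA1 and of 847, 762 and 948 with Luc. As deposited the groups overlapped, and on normalized values they did not. The log2 difference was -0.24 ± 0.07 (limma adjusted p = 0.0954), with the further tested probe sets at -0.18 and -0.14. Rnf2 lies on chromosome 1, where the median log2 difference of 723 tested genes was -0.13, and it differed by -0.10 (adjusted p = 0.525) after centring per chromosome.

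Yaf2, a homologue of Rybp that joins variant PRC1, was higher with KIAA1718 shRNA1. Its brightest probe set had signals of 173, 219.9 and 229 on KIAA1718 shRNA1 arrays and of 112, 125 and 153 on Luc arrays. The groups did not overlap, and Luc replicate 3 came nearest to KIAA1718 shRNA1 replicate 1. The log2 difference was 0.48 ± 0.12, or 1.40-fold (limma adjusted p = 0.0464). Its second probe set, of like signal, was also separated between groups on normalized values but differed by only 0.27 (adjusted p = 0.232). Leaving out any 1 array ended the call, with log2 differences of 0.43 to 0.56 and adjusted p of 0.0541 to 0.154. Chromosome 15, which holds Yaf2, had a median log2 difference of 0.0039 over 505 genes.

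None of the 6 PCGF genes, which set the identity of each PRC1, passed (limma; 1 at an unadjusted p under 0.05). That was Bmi1, a PCGF protein of canonical PRC1, with signals of 67.8, 72.5 and 79.4 with KIAA1718 shRNA1 and of 65.4, 87.7 and 107 with Luc. The deposited signals overlapped and the normalized values did not, and the log2 difference was -0.30 ± 0.13 (adjusted p = 0.251). Its close relative Pcgf2, also called Mel18, differed by -0.38 ± 0.23, with 1 outlying array: KIAA1718 shRNA1 replicate 2 had a signal of 21.7 where the other 5 arrays ran from 44.3 to 69.1. Without that array the difference was -0.07. The PCGF genes of variant PRC1 gave 0.04 for Pcgf1, 0.10 for Pcgf3, 0.21 for Pcgf5 and -0.11 for Pcgf6, with adjusted p of 0.486 or higher. Pcgf5 and Pcgf6 lie on chromosome 19, where the median log2 difference of 458 tested genes was -0.14. Relative to that median they stood at 0.36 and 0.03.

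The chromodomain and SAM-domain subunits of canonical PRC1 showed no gene past the threshold. Of the 4 Polycomb CBX genes none passed (limma; 1 at an unadjusted p under 0.05). Cbx7, the main CBX subunit of PRC1 in embryonic stem cells, had signals of 146, 111 and 161 with KIAA1718 shRNA1 and of 142, 129 and 144 with Luc, and differed by -0.13 ± 0.14. The Luc values lay inside the range of the KIAA1718 shRNA1 values. Cbx2 and Cbx8, which take over as stem cells differentiate, differed by 0.10 and -0.09, Cbx8 at signals of only 4.87 to 17.0. Cbx6 differed by -0.29 ± 0.13 (adjusted p = 0.255) and its second probe set by -0.41 (adjusted p = 0.0758), both with normalized groups that did not overlap.

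The polyhomeotic genes, whose proteins let PRC1 form larger assemblies, gave -0.19 for Phc1, 0.30 for Phc2 and -0.09 for Phc3 (limma, none of 3 passed; 1 at an unadjusted p under 0.05, Phc2). The second probe set of Phc2 differed by -0.06, on the other side of 0. Scmh1 and Scml2, relatives of the fly Sex comb on midleg protein, differed by -0.05 and -0.04, with intervals of -0.48 to 0.37 and -0.41 to 0.32. L3mbtl2, a reader in the variant PRC1 that also holds Pcgf6, differed by 0.12 (adjusted p = 0.613).

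In PRC2, none of the 4 core genes passed (limma; 1 at an unadjusted p under 0.05, Suz12). Suz12, the scaffold of the complex, had signals of 956, 745 and 938 with KIAA1718 shRNA1 and of 705, 547 and 717 with Luc. The KIAA1718 shRNA1 arrays were all higher as deposited, whereas the groups overlapped after normalization. The log2 difference was 0.30 ± 0.12 (adjusted p = 0.196), and the next 2 probe sets by signal gave 0.43 and 0.44 (adjusted p of 0.145 each). Suz12 lies on chromosome 11 with Cbx1, and it differed by 0.16 (adjusted p = 0.537) after centring per chromosome. Of the other members of that chromosome Cbx2 lay above 0 and Cbx8 and Pcgf2 below it, with no direction resolved. Their intervals were -0.30 to 0.50, -0.46 to 0.29 and -0.87 to 0.11.

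Eed, which binds the H3K27 mark and stimulates the complex, had signals of 1308, 1387 and 1385 with KIAA1718 shRNA1 and of 1341, 1196 and 1630.4 with Luc. The deposited signals overlapped and the normalized values did not, and the log2 difference was -0.12 ± 0.07 (adjusted p = 0.399). The histone-binding genes Rbbp4 and Rbbp7 differed by 0.02 and 0.12, and the normalized values of Rbbp7 were separated between groups. The interval was -0.13 to 0.17 for Rbbp4, -0.02 to 0.25 for Rbbp7 and -0.27 to 0.03 for Eed.

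By their brightest probe sets, the 4 accessory genes, which guide PRC2 to its sites, lay close to 0. None passed (limma; none at an unadjusted p under 0.05). Jarid2 differed by 0.12, and its second probe set by -0.12, with normalized groups that did not overlap for the second. Mtf2, the main Polycomb-like subunit in embryonic stem cells, had signals of 1261, 1215 and 1308 with KIAA1718 shRNA1 and of 1139, 1035 and 1345 with Luc, and differed by -0.0083 with an interval of -0.16 to 0.14. The further tested probe sets of Mtf2 ran from -0.04 to 0.22. The highest had normalized groups that did not overlap (limma unadjusted p = 0.0371, adjusted p = 0.230). Phf1 and Phf19, relatives of Mtf2, differed by 0.05 and -0.02.

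The 2 genes of the PR-DUB, the deubiquitinase that removes ubiquitin from H2AK119, lay below 0. Bap1, its catalytic subunit, had signals of 416, 465 and 441 with KIAA1718 shRNA1 and of 462, 511 and 539 with Luc. The groups overlapped slightly as deposited and were separated after normalization, and the log2 difference was -0.32 ± 0.10 (limma adjusted p = 0.112). Bap1 lies on chromosome 14, where the median log2 difference of 428 tested genes was -0.15, and it differed by -0.17 (adjusted p = 0.430) after centring per chromosome. Its partner Asxl1 differed by -0.04 (adjusted p = 0.872).

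**Figure D3:**
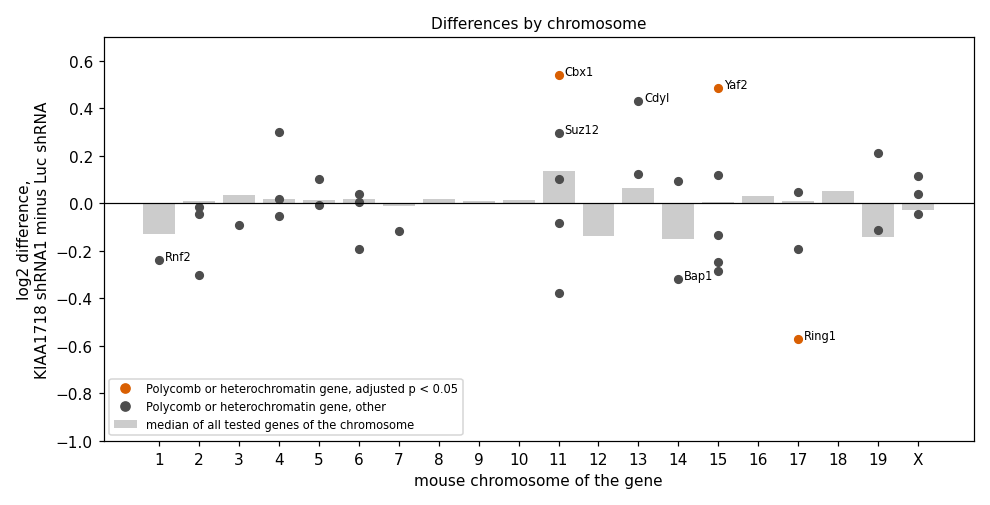
Log2 difference of each of the 36 genes (points) by chromosome, with the median of all tested genes of that chromosome as grey bars. Cbx1 and Suz12 sit on chromosome 11, whose median was 0.13, while Rnf2 and Bap1 sit on chromosomes 1 and 14, whose medians were -0.13 and -0.15.

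Further probe sets allow a check within genes. The 36 genes had 98 probe sets, of which 87 were tested, and 3 of the 87 were called, against 3.68% of all probe sets (995 of 27022). Of 51 further tested probe sets, on 25 genes, 37 lay on the same side of 0 as the brightest, and none passed. The same share over all genes was not counted. Every tested probe set of Cbx1, Cdyl and Yaf2 lay above 0, and every one of Rnf2 and Bap1 below it. Such agreement was not particular to these genes. All tested probe sets of Suz12, Rbbp4, Rbbp7, Pcgf3, Pcgf5 and Cbx2 also lay above 0. All of Cbx6, Cbx7, Bmi1, Pcgf2 and Phc3 lay below it. Those of Cbx5, Jarid2, Mtf2, Pcgf6, Asxl1, Phc2, Atrx, Mphosph8 and Scml2 fell on both sides.

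**Figure D4:**
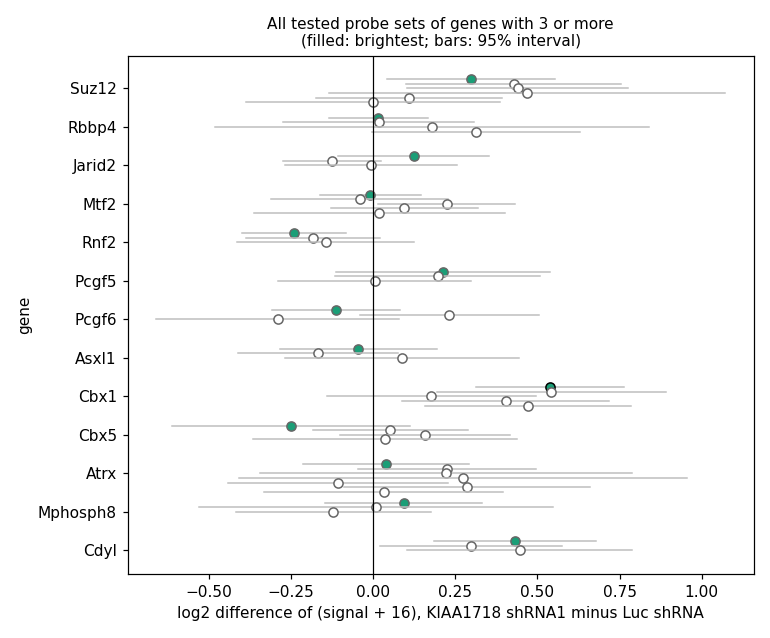
Log2 difference with 95% interval for every tested probe set of the 13 genes with 3 or more, brightest probe set filled. All 5 probe sets of Cbx1 and all 3 of Cdyl lie above 0, as do those of Suz12, Rbbp4 and Pcgf5. All 3 of Rnf2 lie below it, while those of Cbx5 and Pcgf6 lie on both sides.

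Catalytic and other partner genes were read from the same fit. Of 34 tested partners of the Polycomb complexes 2 rose, 1 fell and 31 did not pass (limma), with a median of -0.03. That is 8.82%, against 4.84% of all tested genes, while 35.3% had an unadjusted p under 0.05, against 22%, and 41.2% did not overlap between groups, against 27.9%. Sfmbt2, an MBT-domain protein, had signals of 138, 113 and 140.1 with KIAA1718 shRNA1 and of 38.7, 28.6 and 38.9 with Luc, a log2 difference of 1.40 ± 0.14 (adjusted p = 0.000413). This probe set was far higher on every KIAA1718 shRNA1 array, whereas the second brightest of the gene differed by 0.40 and did not pass (adjusted p = 0.139). The Y-linked Uty, a relative of the H3K27 demethylase Kdm6a, rose by 0.99 on the log2 scale (adjusted p = 0.00449). The 4 tested genes of chromosome Y all lay above 0, with a median of 0.68, and 2 of them rose. Wdr5, a subunit shared with H3K4 methyltransferases, fell by 0.40 (adjusted p = 0.0307). Leaving out any 1 array ended the call of Wdr5, with adjusted p of 0.0610 to 0.126.

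Of 30 tested partners in H3K9 methylation and heterochromatin 1 fell, none rose and 29 did not pass (limma), with a median of -0.05. That is 3.33% against 4.84% of all tested genes, and 23.3% against 22% had an unadjusted p under 0.05. The gene that fell was Ehmt2, an H3K9 methyltransferase, with signals of 288, 287 and 293 with KIAA1718 shRNA1 and of 411, 377 and 469.98 with Luc. The groups were far apart, and the log2 difference was -0.65 ± 0.09 (adjusted p = 0.00398). Cdyl2, a relative of Cdyl, differed by -0.41 (adjusted p = 0.167), on the other side of 0 from Cdyl.

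Genes on which these complexes are known to act were read against the share of all tested genes called (4.84%), with 1 call in each list. Of 37 developmental genes bound by Polycomb in embryonic stem cells 23 were bright enough to be tested, and 1 fell, none rose and 22 did not pass, a share of 4.35% (limma; 3 at an unadjusted p under 0.05), with a median of -0.00068. Sox7, a transcription factor gene of the primitive endoderm, was the one that fell, by 0.84 on the log2 scale at low signal (10.3 to 16.1 with KIAA1718 shRNA1 and 25.9 to 49.8 with Luc), and its call was lost without Luc replicate 3, at -0.73. Mixl1 differed by 0.38 (adjusted p = 0.156). Of 14 tested germline genes held silent by the variant PRC1 with Pcgf6 and L3mbtl2, 1 fell, none rose and 13 did not pass, a share of 7.14% (limma; 4 at an unadjusted p under 0.05), with a median of -0.17 and 11 below 0. Groups did not overlap for 42.9% of the germline and 8.70% of the developmental genes, against 27.9% of all tested genes. An unadjusted p under 0.05 was found for 28.6% and 13.0% of them, against 22%. Stra8, the meiotic regulator, had signals of 35.5, 25.6 and 33.9 with KIAA1718 shRNA1 and of 75.6, 63.6 and 67.9 with Luc. It fell by 0.95 on the log2 scale, and Mael differed by -0.47 (adjusted p = 0.0716).

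Markers of other cell types varied between arrays alongside. The summed signal of 20 fibroblast markers, all of which passed the filter on mean signal, was 4506, 6394 and 6742 on KIAA1718 shRNA1 arrays and 4675, 7973 and 9796 on Luc arrays. Their mean log2 level differed by -0.46 (two-sided exact permutation p = 0.3, where 3 against 3 arrays cannot go below 0.1), and 19 of 20 lay below 0. The permutation tests here take no account of the replicate numbers. Replicate 1 had the lowest fibroblast mean in both groups, at 6.96 with KIAA1718 shRNA1 and 7.14 with Luc. Col1a1 ran from 50.7 to 193 with KIAA1718 shRNA1 and from 126 to 505 with Luc. No listed fibroblast marker was at 0, the lowest signal of any being 3.16, but this alone does not show fibroblast RNA. Probe sets left out as too dim could also have signals above 0, such as 1 of Mtf2 at 0.224 on Luc replicate 2. With the fibroblast mean as a covariate the log2 differences were 0.51 for Cbx1, 0.61 for Yaf2 and -0.62 for Ring1, and none of them passed (limma adjusted p of 0.130, 0.0883 and 0.152). Of 16 listed primitive endoderm markers 14 were bright enough to be tested, all 14 lay below 0 and 4 fell. Of 9 embryonic stem cell markers 8 lay below 0 and 2 fell. That is 28.6% and 22.2% called, all lower, against 4.84% of all tested genes called and 2.17% called as lower. Of all tested genes 50.2% lay above 0. The mean log2 level differed by -0.36 for primitive endoderm and -0.23 for embryonic stem cell markers (two-sided exact permutation p = 0.1 for each). That is the lowest value possible here, and on both lists every KIAA1718 shRNA1 array lay below every Luc array. Of 9 listed trophectoderm markers 6 were bright enough to be tested. All 6 lay above 0 and none passed (limma; none at an unadjusted p under 0.05). Their mean log2 level differed by 0.18 (two-sided exact permutation p = 0.2). Cdx2, Krt7, Hand1 and Ascl2 were dim, with mean signals of 19.2, 9.88, 11.8 and 14.3. The brighter Tfap2c and Eomes differed by 0.01 and 0.19. The part of these 3 marker lists in the results was not tested. In bulk RNA, fewer cells of a type and less RNA per cell cannot be told apart.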

How the data were processed

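RNA abundance was measured on 6 arrays, 3 per group, with groups and replicate numbers taken from the sample titles. The authors deposited a linear signal intensity per probe set; per the submitters' processing notes the tool was GCOS, whose version and settings no source used here states. The number of arrays limits the precision.

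After 64 control probe sets were left out, log2(signal + 16) was quantile-normalized, and the dimmest 40% by mean signal were removed, which left 27022 probe sets. Fold changes understate the change of dim genes. Tests were limma's (version 3.58.1, R 4.3.3; lmFit and eBayes, trend on), two-sided, at a Benjamini-Hochberg adjusted p under 0.05 over all tested probe sets. Of 45037 probe sets 34945 had 1 symbol, 932 several and 9160 none here; symbols were updated with a RefSeq table of GRCm38.p6, which also gave chromosomes. Of the 37 genes 33 had a promoter entry. A simulation of this comparison on 27022 probe sets, with noise drawn separately for each, recovered 26.9% of 67 planted log2 changes of 0.5 and 100% of those of 1 (67) and 1.5 (66); 17 of its 168 calls were false.

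The genes, the partner, target and marker lists, and the settings were chosen with earlier results of these data known. All 36 measured genes are named, with Kdm7a and, from each partner or target list, at most 4 called genes in order of change; where fewer than 2 were called, the leading 2 by p are named instead. Pou5f1, Fgf4, Utf1 and Col1a1 were named after their values were seen.

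Both groups carry replicate numbers 1 to 3. Arrays of the same number deviated together from their group means (correlations 0.203, 0.125 and 0.130), each over the limit of 0.1 for treating numbers as pairs, although no label says what a number marks; fits are without the block unless stated. Every pair of arrays differed in at least 45036 probe sets. Alternatives were other scalings, pseudocounts, filters, probe sets and covariates, the replicate block, and each array left out with the filter and probe sets kept.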

Additional observations from a re-analysis of the deposited data

How the results depend on the processing

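Cbx1 stayed called in 10 of 17 alternatives, Yaf2 in 3 of 17 and Ring1, which has no second probe set, in 3 of 16, without a change of sign. Of the 33 other genes, 18 changed sign in at least 1 alternative without being called, and 1, Cdyl, was called in 1, the replicate block.

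The main setting called 3 of the 36 genes and 617 of all genes. The number of the 36 was 1 with unscaled signals and 1 with a pseudocount of 1, and it was 0 without a filter on low values, without the intensity trend, with the second brightest probe set, with the fibroblast covariate and after centring per chromosome (limma; 9, 7, 5, 7 and 9 of them at an unadjusted p under 0.05). Leaving out 1 array gave 0 to 1, with 0 without KIAA1718 shRNA1 replicate 3 or Luc replicate 3 (8 and 7 at an unadjusted p under 0.05). With the replicate number as a block it was 4, the same 3 among them, and the block changed no other call of the 36. For all genes the count was 367 with unscaled signals, 197 without a filter, 388 without the trend, 1000 with the replicate block (all 617 included), 196 with the second brightest probe set, 142 with the fibroblast covariate, and 161 to 525 without 1 array. Higher genes made up 81.2% of those called with unscaled signals, where the median of all genes was 0.11 (log2), and 42.7% with median scaling.

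Polycomb partners called numbered 5 with the replicate block. Heterochromatin partners called numbered 0 with unscaled signals (5 at an unadjusted p under 0.05), 2 with the block, 2 with the second brightest probe set, and 1 to 2 without 1 array. Developmental genes called numbered 0 without a filter, with the second brightest probe set and with the fibroblast covariate (5, 2 and 3 at an unadjusted p under 0.05), and 0 to 1 without 1 array. Germline genes called numbered 0 with the second brightest probe set, which left 2 genes. The cause of these changes was not tested, except that the second brightest probe set covers fewer genes. Dim probe sets limit what can be read for Cbx3, Cbx8, Scml2 and Phf19, whose signals were below 25 on every array.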
